A study of Mus musculus with 12 samples.

Results

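Ruxolitinib given on top of palbociclib was measured here as the difference between the combination of both drugs and palbociclib alone. The members were genes with a base mean of at least 50 normalised reads, the mean over all libraries of the authors' fit, whose symbols do not begin with Igh, Igk or Igl. There were 11939 such genes among the 55487 of the deposited tables, and 11933 of them were tested. For each gene, the value was the authors' log2 fold change of combination over vehicle minus that of palbociclib over vehicle, so the vehicle level cancels. At the lower edge, Pcdhb22 and C2 entered with base means of 50.15 and 50.3, and Epx stayed out with 49.98.

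Bone marrow LSK cells of C57BL/6 mice were sequenced after polyA selection, from a series labelled BMT. All 4 groups, the controls included, carried the genotype homozygous JAK2V617F, and each had 3 libraries: combination (palbociclib and ruxolitinib), palbociclib, ruxolitinib and vehicle. Marrow was depleted of lineage-positive cells and then sorted by flow cytometry. The labels give no doses, ages or treatment times and do not tie libraries to single mice, so p-values measure the spread between libraries as the authors' DESeq2 model estimated it.

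LSK cells are the lineage-negative, Sca-1-positive, Kit-positive fraction of marrow, which holds haematopoietic stem cells and multipotent progenitors. Palbociclib inhibits CDK4 and CDK6, the cyclin D kinases that phosphorylate the RB protein and release E2F factors for entry into S phase. Ruxolitinib inhibits JAK1 and JAK2, the kinases that carry signals of cytokine and interferon receptors to STAT factors, and JAK2V617F is the activating mutation found in human myeloproliferative neoplasms.

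The values per library were not used here, so each gene is given as a modelled level per group, in normalised reads, with a 95% interval where it is printed. Reads in genes were estimated from the tables at 18.2 to 44.7 M in combination libraries, 25.1 to 30.1 M in palbociclib libraries and 21.4 to 34.1 M in ruxolitinib libraries, and about 32.6 M in vehicle libraries, which could not be resolved singly. The stem cell gate genes were present: Kit stood at 19779 in combination and 15429 in palbociclib libraries, and Cd34 at 22792 and 22329 in the same order. Ly6a, which encodes Sca-1, stood at 3539 in combination and 2092 in palbociclib libraries. The T cell gene Cd3e and the neutrophil gene Ly6g had base means of 1.005 and 4.087. The Y-linked gene Ddx3y was near 0 in both groups compared, at 0.92 in combination and 4.01 in palbociclib libraries, against 1108 in ruxolitinib and 419.6 in vehicle libraries, and Uty and Eif2s3y were likewise near 0 in combination and palbociclib libraries but not in ruxolitinib and vehicle libraries. Gm47283, annotated on the Y chromosome too, did not follow them, with 1054 in combination, 1433 in palbociclib, 1155 in ruxolitinib and 281.2 in vehicle libraries. Xist, transcribed from the inactive X chromosome, stood at 71157 in combination, 66321 in palbociclib, 42127 in ruxolitinib and 42042 in vehicle libraries. The part of this difference in the comparisons that use ruxolitinib or vehicle libraries was not tested.

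The errors of the 2 deposited fold changes can be joined in more than 1 way. Their root summed square counts the vehicle spread in both terms and is too wide: with it, 0 of 11933 genes were higher in the combination than in palbociclib and 1 was lower (0.00838%), the interferon-induced receptor transporter gene Rtp4. At an unadjusted p under 0.05 these errors passed 387 genes higher (3.24%) and 268 lower (2.25%). The error of the contrast itself, without the vehicle, was recovered from the 3 deposited errors of each gene and was 0.708 times as wide at the median. With it, 83 genes rose (0.696%) and 66 fell (0.553%) at an adjusted p under 0.05, 149 in all (1.25%), while 1238 (10.4%) and 1145 (9.6%) were higher and lower at an unadjusted p under 0.05. By direction alone, 5644 differences lay above 0 (47.3%) and 6289 below (52.7%). With the difference centred on its median over the members, -0.02, the recovered errors called 136 genes higher and 57 lower, so the balance between directions depends on the scaling. "Rose" and "fell" below are used for these recovered-error calls. Their adjusted p (DESeq2 errors, 2-sided normal test, Benjamini-Hochberg over 19228 genes) is printed for many of them and is under 0.05 for the rest. By the summed errors every call named below except Rtp4 fails the threshold.

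**Figure D1:**
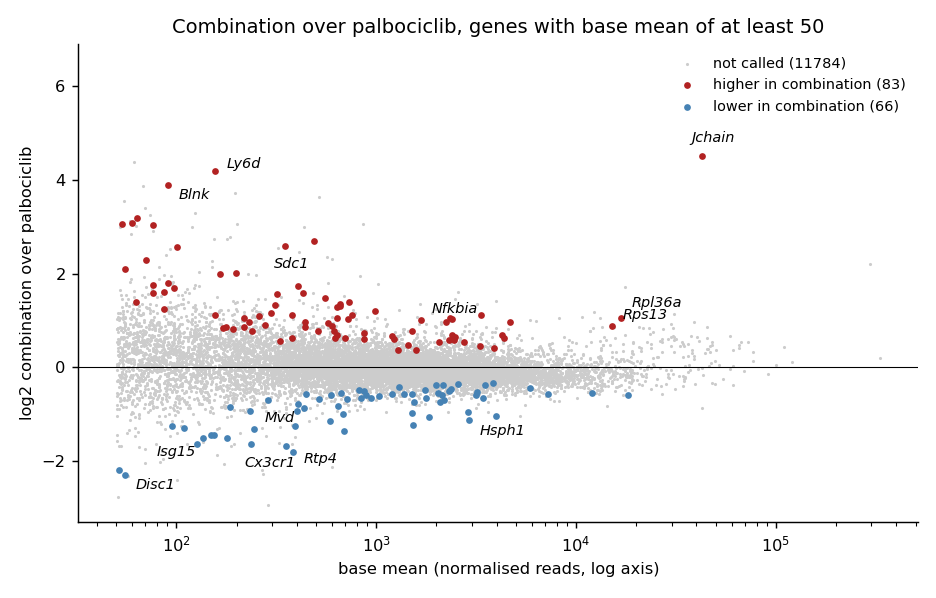
Difference between combination and palbociclib (log2, vertical axis) against the base mean (normalised reads, log axis) for genes with a base mean of at least 50. Red points are the 83 genes that rose and blue points the 66 that fell with the recovered errors; Jchain lies highest at 4.51 and Disc1 lowest among those that fell, at -2.29.

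Of the 83 genes that rose, 73 also passed, in the authors' deposited table, in combination over vehicle, 5 in palbociclib over vehicle and 0 in ruxolitinib over vehicle, in either direction. Of the 66 that fell, 45 passed in combination over vehicle, 9 in palbociclib over vehicle and 2 in ruxolitinib over vehicle. The authors' deposited table passed 14.3% of members as higher and 15.3% as lower in combination over vehicle, and 5.05% and 4.46% in palbociclib over vehicle. The combination and palbociclib comparisons share libraries with the difference, so their counts are a description. Ruxolitinib over vehicle shares no library with it, and passed 1.06% of members as higher and 2.3% as lower.

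Several interferon response genes were lower in the combination than in palbociclib. Of 43 members, 6 fell, 0 rose and 37 did not pass, and 16 were lower at an unadjusted p under 0.05. The list's median was -0.37, against -0.02 over all 11933 genes tested. Over all of these, 0.696% rose and 0.553% fell. At an unadjusted p under 0.05, 10.4% were higher and 9.6% lower. Counts of the later lists stand beside the same shares. Those that fell were Rtp4, Isg15, Oasl1, Oas3, Usp18 and Oas1a. Isg15 encodes a ubiquitin-like protein, Usp18 the protease that removes it, and the Oas genes the 2'-5' oligoadenylate synthetases that sense double-stranded RNA.

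Rtp4, at chr16:23520291-23614222 in GRCm38 on the plus strand, stood at 181 normalised reads in combination libraries (95% interval 140.9 to 232.4), 630.2 in palbociclib (497.3 to 798.7), 468.1 in ruxolitinib (368.9 to 594) and 314 in vehicle libraries (246.9 to 399.2). The combination interval lay below the other 3. The difference was -1.80 ± 0.25 (recovered error, adjusted p = 1.24e-08) or 3.48-fold lower, and it also passed with the summed error of 0.36 (adjusted p = 0.00415). In the authors' deposited table, Rtp4 was at -0.79 ± 0.26 in combination over vehicle and 1.01 ± 0.25 in palbociclib over vehicle. Isg15 stood at 99.5 in combination (74.7 to 132.4), 268.8 in palbociclib (205.8 to 351), 128.5 in ruxolitinib and 108.5 in vehicle libraries, a difference of -1.43 ± 0.29 (adjusted p = 0.000873). Its combination, ruxolitinib and vehicle levels thus lay close together, below the palbociclib level. In the authors' deposited table, Isg15 had passed in palbociclib over vehicle at 1.31 ± 0.28 and was at -0.13 ± 0.29 in combination over vehicle.

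Usp18 stood at 112.9 in combination and 320.7 in palbociclib libraries, a difference of -1.51 ± 0.37 (adjusted p = 0.0145). Oasl1 followed at 78.7 in combination and 214.9 in palbociclib libraries (-1.45 ± 0.33, adjusted p = 0.00734), and Oas3 at 368.7 and 949.9 in the same order (-1.36 ± 0.33, adjusted p = 0.0141). Oas1a stood at 348.1 in combination and 764.9 in palbociclib libraries (-1.14 ± 0.30, adjusted p = 0.0286). The Oas genes lie in families of similar sequence, so their reads can be split between copies. Not every member moved: Bst2, which tethers virus particles to the cell surface, was at 0.12 ± 0.30. Irf7, an interferon-induced transcription factor, stood at 250.2 in combination and 460.8 in palbociclib libraries (-0.88 ± 0.34, adjusted p = 0.146). Bst2 and Irf7 were picked after their values were seen.

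The promoters of genes in this group are shown because they fell together. The windows run from 250 bases before the start of transcription to 50 after it, from RefSeq on GRCm38.p6, printed 5′ to 3′ on the gene's strand. Capitals mark the core of the interferon-stimulated response element, written as GAAA, then 2 bases of any kind, then GAAA, searched on both strands with overlapping matches joined. Isg15 (chr4:156200769-156201068, minus strand) holds 3 overlapping matches, Oas3 (chr5:120777610-120777909, minus strand) 1 and Oas1a (chr5:120907476-120907775, minus strand) 2.
Isg15: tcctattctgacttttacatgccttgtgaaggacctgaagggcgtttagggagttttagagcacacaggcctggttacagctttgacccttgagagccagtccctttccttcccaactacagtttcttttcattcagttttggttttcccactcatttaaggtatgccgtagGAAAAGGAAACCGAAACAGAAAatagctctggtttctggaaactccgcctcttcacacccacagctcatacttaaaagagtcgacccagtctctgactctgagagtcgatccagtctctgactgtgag
Oas3: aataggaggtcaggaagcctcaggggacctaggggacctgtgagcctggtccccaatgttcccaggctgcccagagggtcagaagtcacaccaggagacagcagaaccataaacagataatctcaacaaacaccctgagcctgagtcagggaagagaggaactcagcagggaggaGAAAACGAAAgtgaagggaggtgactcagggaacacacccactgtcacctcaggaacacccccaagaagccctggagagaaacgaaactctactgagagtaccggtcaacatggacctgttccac
Oas1a: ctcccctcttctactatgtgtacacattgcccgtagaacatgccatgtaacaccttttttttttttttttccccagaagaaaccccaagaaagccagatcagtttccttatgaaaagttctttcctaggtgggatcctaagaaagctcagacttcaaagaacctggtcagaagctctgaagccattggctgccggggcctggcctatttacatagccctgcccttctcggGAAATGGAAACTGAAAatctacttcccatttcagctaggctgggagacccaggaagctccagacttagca
Such a match lay in 19 of 32 interferon promoters found in the table (59.4%), and in 1079 of all 27025 promoters (3.99%). Among the 6 that fell, 4 had a promoter in the table and 3 held a match. Oasl1 held none in this window.

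Several genes of the cholesterol synthesis list were also lower in the combination than in palbociclib. Of 24 members, 7 fell, 0 rose and 17 did not pass, and 18 were lower at an unadjusted p under 0.05. The median was -0.66, and 22 of 24 differences were below 0. Among them were Hmgcs1, which makes HMG-CoA, Mvd and Idi1, which act in isoprenoid formation, and Cyp51, which demethylates sterols.

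Mvd (chr8:122433601-122443422, GRCm38, minus strand) stood at 154 in combination libraries (115.5 to 205.5), 382.3 in palbociclib (289.9 to 504), 189.8 in ruxolitinib and 190.2 in vehicle libraries, a difference of -1.31 ± 0.29 (adjusted p = 0.00508). Palbociclib alone was the high group, and the other 3 overlapped. The authors' deposited table put Mvd at -0.30 ± 0.30 in combination over vehicle and 1.01 ± 0.29 in palbociclib over vehicle. Cyp51 stood at 1103 in combination, 2166 in palbociclib, 1378 in ruxolitinib and 1305 in vehicle libraries (-0.97 ± 0.26, adjusted p = 0.0253).

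Idi1 stood at 477.7 in combination and 951.3 in palbociclib libraries (-0.99 ± 0.28, adjusted p = 0.0431). Hmgcs1 stood at 1486 in combination, 2484 in palbociclib, 1835 in ruxolitinib and 2278 in vehicle libraries (-0.74 ± 0.21, adjusted p = 0.0463). Sqle, the squalene epoxidase gene picked after its value was seen, had 1246 in combination and 2168 in palbociclib libraries (-0.80 ± 0.25, adjusted p = 0.0648). Srebf2, which encodes the main transcription factor of the pathway, was at -0.37 ± 0.18 (adjusted p = 0.27). The Hmgcs1 promoter (chr13:119690101-119690400, plus strand) is shown as the 1 member of this list, among 17 with a promoter in the table, that holds TCACNCCAC, a sterol regulatory element core (both strands searched, in capitals). The same letters occur in 1.44% of all promoters.
Hmgcs1: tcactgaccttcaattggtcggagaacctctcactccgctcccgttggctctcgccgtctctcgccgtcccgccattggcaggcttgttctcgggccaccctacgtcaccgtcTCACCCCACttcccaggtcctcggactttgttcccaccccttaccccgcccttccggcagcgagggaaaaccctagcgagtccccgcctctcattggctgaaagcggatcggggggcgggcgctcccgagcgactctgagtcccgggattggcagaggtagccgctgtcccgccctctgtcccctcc

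**Figure D2:**
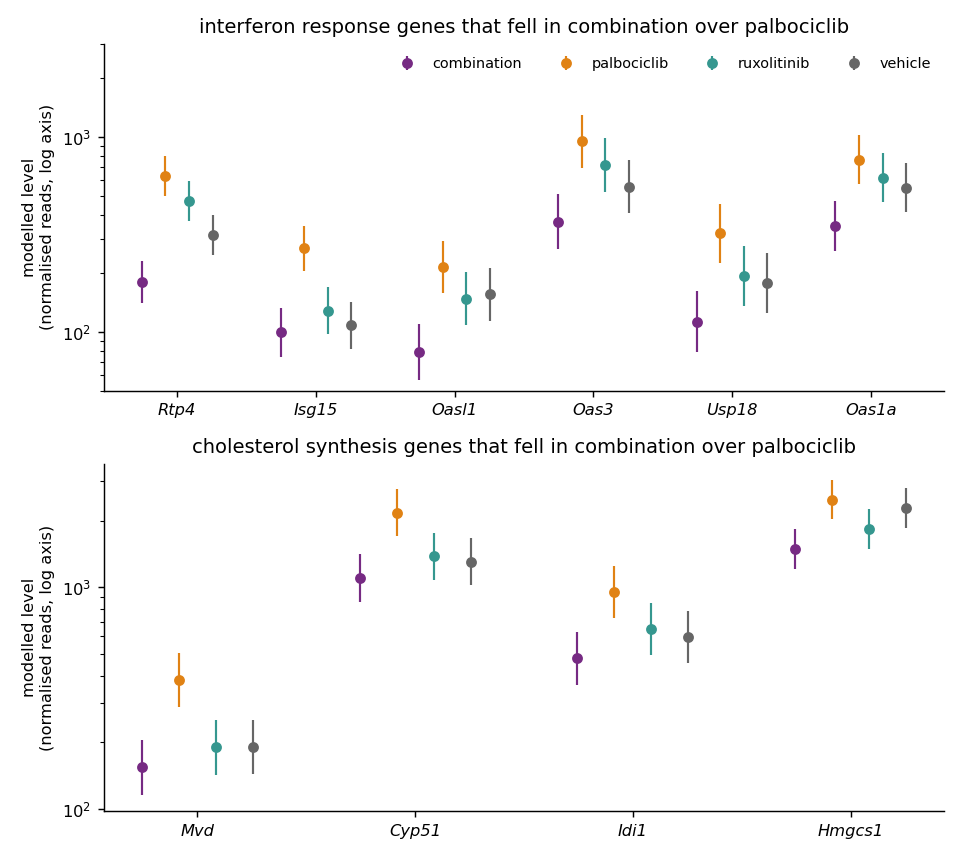
Modelled levels (normalised reads, log axis) of the 6 interferon response genes that fell in the combination against palbociclib (top) and of 4 cholesterol synthesis genes that fell (bottom). Points are group levels and bars their 95% intervals, for combination, palbociclib, ruxolitinib and vehicle; palbociclib is the highest group for each gene shown.

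Ribosomal protein genes lay nearly all above 0 in the combination against palbociclib, though few passed. Of 81 members, 2 rose, 0 fell and 79 did not pass; 65 were higher at an unadjusted p under 0.05, 79 lay above 0, and the median was 0.55. They took 10.99% of normalised reads in combination, 8.327% in palbociclib, 7.537% in ruxolitinib and 7.534% in vehicle libraries. Rps13 stood at 25853 in combination (20391 to 32777) and 14058 in palbociclib libraries (11088 to 17825), a difference of 0.88 ± 0.25 (adjusted p = 0.0402), and Rpl36a, on the X chromosome, at 33830 and 16177 in the same order (1.06 ± 0.28, adjusted p = 0.0266). Rpl38, also of the large subunit, was at 1.05 ± 0.31 (adjusted p = 0.0526). Pseudogene copies share their reads with ribosomal protein genes, and one, Rpl36a-ps2, rose by 1.74 ± 0.45. Transcript length moved with the difference: over the 2385 shortest genes its median was 0.14, or 0.13 without ribosomal proteins, over the 2385 longest it was -0.09, and the list's median length was 1059 bases. The part of transcript length in the list's median was not tested.

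Genes that build ribosomes had differences of the opposite sign. Of 47 ribosome biogenesis factors, 1 fell, 0 rose and 46 did not pass, while 46 lay below 0, 19 were lower at an unadjusted p under 0.05 and the median was -0.30. Nop2, a nucleolar methyltransferase of ribosomal RNA, stood at 2379 in combination and 3759 in palbociclib libraries (-0.66 ± 0.18, adjusted p = 0.0267). Among 30 heat shock proteins and chaperones 3 fell, 0 rose and 27 did not pass (median -0.20). They were Hsph1 at 1790 in combination and 3897 in palbociclib libraries (-1.12 ± 0.24, adjusted p = 0.00326), the chaperone Hspa4 at 8857 and 12933 in the same order (-0.55 ± 0.15, adjusted p = 0.0409), and the adaptor Stip1 at 5311 and 7918 (-0.58 ± 0.17, adjusted p = 0.0453). Oxidative phosphorylation genes had 0 calls among 74, with 15 higher at an unadjusted p under 0.05 and a median of 0.11. In the unfolded protein and integrated stress response list, 3 of 32 rose, 0 fell and the median was 0.04. Herpud1 and Edem1, of degradation in the endoplasmic reticulum, and the transcription factor gene Atf5 were at 1.06, 1.12 and 1.33.

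The cell cycle lists gave no call, with S phase genes below 0 and mitotic genes near it. The lists do not hold every such gene: Mcm8, in none of them, fell (-0.65 ± 0.18, adjusted p = 0.0342). Mcm8 was picked after its value was seen. Of 60 S phase and replication genes, 0 rose or fell by the adjusted test, but 58 lay below 0, 15 were lower at an unadjusted p under 0.05 and the median was -0.39. Dnmt1, the maintenance DNA methyltransferase, stood at 10757 in combination (8702 to 13298) and 16072 in palbociclib libraries (13003 to 19864), a difference of -0.58 ± 0.22 (adjusted p = 0.141). Pold2 and Rpa1, of the replication fork, were at -0.44 and -0.42 (adjusted p = 0.176 and 0.157). The homologous recombination and Fanconi list had 0 calls among 32, 30 differences below 0 and a median of -0.28. The 70 G2/M and mitosis genes had 0 calls, 1 higher and 0 lower at an unadjusted p under 0.05, and a median of -0.06. Their median was -0.83 in combination over vehicle and -0.82 in palbociclib over vehicle, which share the vehicle libraries. Mki67 was at 0.13 ± 0.33, with 11172 normalised reads in combination and 10211 in palbociclib libraries, and was picked after its value was seen.

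The drug targets gave 0 calls among 9, with 0 higher and 1 lower at an unadjusted p under 0.05. Over all members 9.6% were lower at that p. Jak2 differed by 0.14 ± 0.19, Jak1 by -0.08 ± 0.16, Cdk4 by -0.24 ± 0.16 and Cdk6 by -0.22 ± 0.20. Jak3 was at -0.48 ± 0.15 (adjusted p = 0.0698), and Ccnd1, cyclin D1, stood at 4753 in combination and 6660 in palbociclib libraries (-0.49 ± 0.25). Of 21 JAK-STAT targets 1 rose, 0 fell and 20 did not pass, with a median of -0.13; the one that rose, Tnfrsf13b (0.59 ± 0.15), is also a plasma cell gene of another list. Socs1, the feedback inhibitor, was at -0.58 ± 0.33 (adjusted p = 0.35), Cish at -0.30 ± 0.42, and Pim1 at -0.18 ± 0.43. Cish and Pim1 were picked after their values were seen. Among NF-kB targets, 1 of 18 rose: Nfkbia, which encodes the inhibitor IκBα, at 2655 in combination (2157 to 3269) and 1318 in palbociclib libraries (1069 to 1624), or 1.01 ± 0.22 (adjusted p = 0.00326).

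**Figure D3:**
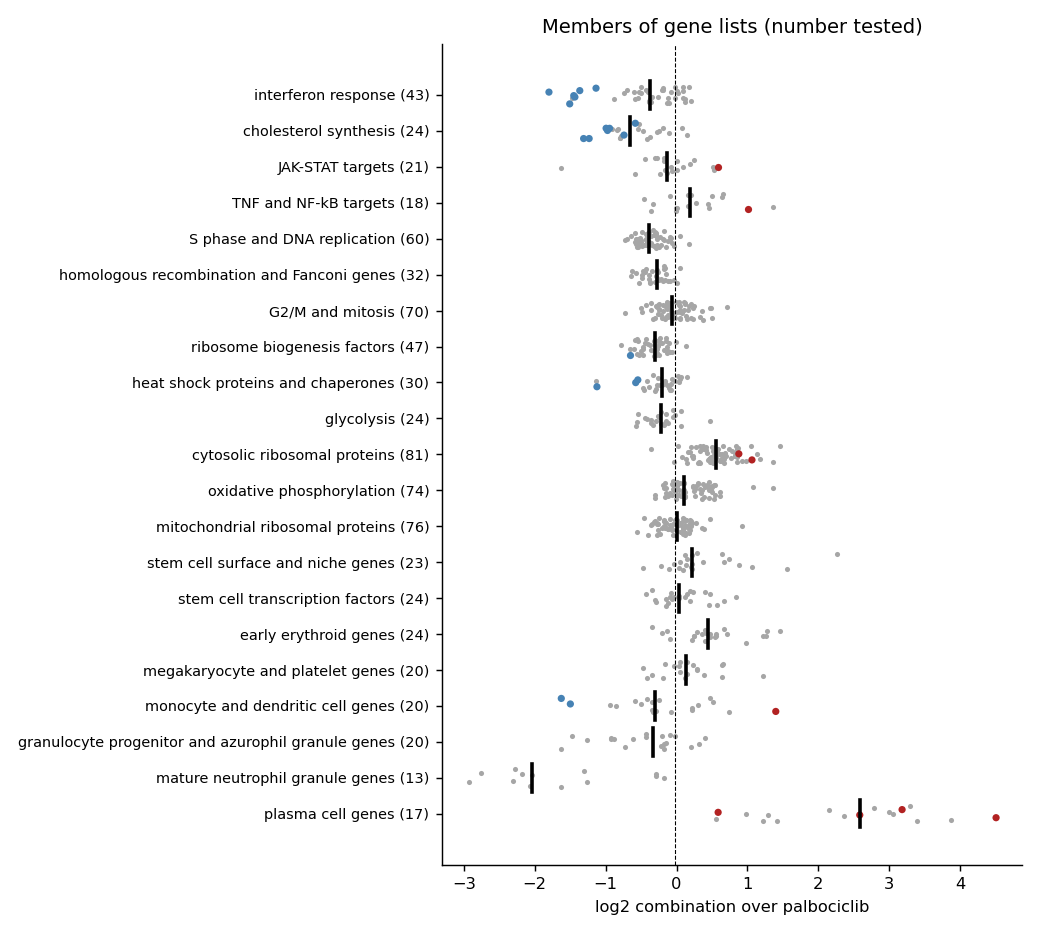
Difference between combination and palbociclib (log2, horizontal axis) for each tested member of 21 gene lists, with the number tested in brackets. Red points rose and blue points fell with the recovered errors, black bars are list medians and the dashed line is the median of all members; ribosomal proteins lie to the right at a median of 0.55 and cholesterol synthesis to the left at -0.66. The plasma cell and mature neutrophil lists hold members that met the base mean minimum only through the group where they are high.

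Stem cell surface genes had 0 calls among 23, a median of 0.22 and 6 higher at an unadjusted p under 0.05. Procr, the endothelial protein C receptor that marks stem cells, stood at 1366 in combination, 741.5 in palbociclib, 589.3 in ruxolitinib and 283.2 in vehicle libraries (0.88 ± 0.32, adjusted p = 0.123). Sort genes had 0 calls among 9, with 3 higher and 0 lower at an unadjusted p under 0.05. Hox genes had 0 calls among 11 with a median of 0.67 and 5 higher at an unadjusted p under 0.05, and Hoxa5 was closest to the threshold at 1.03 ± 0.32 (adjusted p = 0.0614). All 10 MHC class II genes lay above 0 (median 0.43), with 0 calls and 3 higher at an unadjusted p under 0.05. Of 20 monocyte and dendritic cell genes 1 rose and 2 fell (median -0.31): the protease gene Ctss rose by 1.40 ± 0.35, while the fractalkine receptor gene Cx3cr1 and the integrin gene Itgax fell to 47.9 and 76.9 in combination, against 147.6 and 217.3 in palbociclib libraries.

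Among genes called, the plasma cell gene Jchain had the largest difference. Of 20 plasma cell genes listed 17 met the base mean minimum, and those that rose were Jchain, Sdc1, Eaf2 and Tnfrsf13b. Of 20 B lineage genes 5 met it, and Cd79b and Blnk rose. The other B lineage members did not pass. Cd79a had 855 in combination and 64.7 in palbociclib libraries, while Cd72 had 1402 and 1458 and Cd37 3047 and 3374. Several members of both lists met the base mean minimum only through the combination, where they are high. Eaf2 and Blnk were among them, with levels below it in every other group. Mzb1, also among them, had 334.3 in combination, 31.8 in palbociclib, 0.68 in ruxolitinib and 6.36 in vehicle libraries. A member chosen in that way had to differ, so the direction of the list is not read from its counts or median. Jchain (chr5:88519809-88527891, GRCm38, minus strand), which links polymeric immunoglobulin, stood at 251329 in combination (98372 to 642113), 11049 in palbociclib (4325 to 28231), 371 in ruxolitinib and 1258 in vehicle libraries, a difference of 4.51 ± 0.98 (adjusted p = 0.00342). Sdc1, the syndecan of plasma cells, stood at 1023 in combination and 170.5 in palbociclib libraries (adjusted p = 0.0342). Eaf2 stood at 308 and 33.9 in the same order (adjusted p = 0.0236). Immunoglobulin segments, outside the rule, took 6.71% of normalised reads in combination, 0.4345% in palbociclib, 0.02358% in ruxolitinib and 0.0796% in vehicle libraries. Fewer cells of a type and less RNA per cell cannot be told apart in these bulk libraries, and whether 1 or all 3 libraries carried a level cannot be read from group values. Summed over the 17 plasma genes, the levels were 277907 in combination and 20815 in palbociclib libraries, of which Jchain alone held 251329 and 11049. The sum includes members that entered through the combination, so no direction is read from it either. The part of plasma and B cell transcripts in the other gene groups was not tested. Without the lists of other cells and Y-linked genes, 76 genes rose and 65 fell. Those lists hold only 6 of the 83 genes that rose and 0 of the 66 that fell. Unlisted genes such as Bhlha15 stay in, so these counts do not measure that part.

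Mature neutrophil granule genes gave no call. Of 27 listed, 13 met the base mean minimum and 3 were lower at an unadjusted p under 0.05. Several met it through palbociclib, where they are high, as Mmp9 did with 94.7 in combination, 388.6 in palbociclib, 2.55 in ruxolitinib and 1.52 in vehicle libraries, so no direction of the list is read from them. Il1r2, below the minimum, had 46.8 in combination and 15.7 in palbociclib libraries. Ltf, lactoferrin, stood at 203.2 in combination (51.1 to 807.8), 1555 in palbociclib (392.2 to 6164), 6.39 in ruxolitinib and 6.32 in vehicle libraries, and the combination and palbociclib intervals overlapped (-2.93 ± 1.43, adjusted p = 0.269). Summed levels of the list were 4860 in combination, 11871 in palbociclib, 2588 in ruxolitinib and 3304 in vehicle libraries. Padi4 alone held 2542, 3122, 2128 and 1834 of these in the same order. The sums include the members that entered through palbociclib, so no direction is read from them either.

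**Figure D4:**
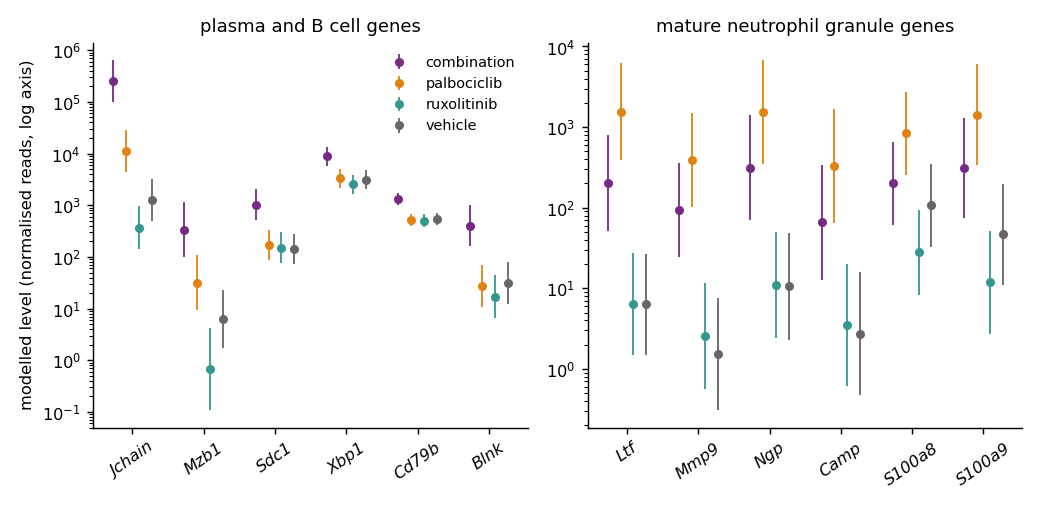
Modelled levels (normalised reads, log axis) of plasma and B cell genes (left) and mature neutrophil granule genes (right) for combination, palbociclib, ruxolitinib and vehicle. Points are group levels with 95% intervals; Jchain is highest in the combination at 251329 and Ltf in palbociclib at 1555.

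Beyond the lists, Disc1, a scaffold protein gene, fell most, at 11.1 in combination and 54.4 in palbociclib libraries (-2.29 ± 0.46, adjusted p = 0.000873). Fbxl2, an F-box protein gene, fell by 2.18, the transglutaminase gene Tgm1 by 1.67 and Pstpip2 by 1.64 on the log2 scale (adjusted p = 0.0421, 0.00296 and 0.00508). The inositol transporter gene Slc5a3 (-1.25 ± 0.25), Zfp109 (-0.78 ± 0.15) and the dipeptidyl peptidase gene Dpp9 (-0.69 ± 0.14) had among the smallest p. Slc2a9, a urate transporter, rose with 975.2 in combination and 472.8 in palbociclib libraries (1.04 ± 0.19, adjusted p = 5.48e-05). The phospholipase gene Plcd3 rose by 3.07 ± 0.58 (adjusted p = 0.000284), and the arrestin-like gene Arrdc4 by 1.31 ± 0.28. Ly6d, Cd28, St6gal1, Bhlha15 and Etl4 rose by 4.18, 3.04, 2.69, 2.57 and 2.30, and Bhlha15 encodes a transcription factor of secretory cells that plasma cells also use. Further rises were those of Rundc3a, the miRNA gene Mir703 and Mttp, at 2.11, 2.01 and 1.79 (adjusted p = 0.0266, 0.0236 and 0.0409). Plcd3, Ly6d, Cd28, Etl4 and Rundc3a met the base mean minimum only through the combination, as their levels in every other group lay below it. Genes that entered in that way had to differ, so no direction is read from them as a set. The part of plasma and B cell transcripts in the rises of these unlisted genes was not tested.

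The effect of ruxolitinib alone was then set beside its effect on top of palbociclib. These contrasts share no library. In the authors' deposited table, ruxolitinib over vehicle passed for 127 members higher (1.06%) and 275 lower (2.3%). Of the 127, 69 had the same direction in combination minus palbociclib (54.33%), with a median of 0.03 there, against 0.93 for ruxolitinib over vehicle. Of the 275, 135 did (49.09%), with medians of 0.02 and -1.03. Across 11933 genes Pearson's r between the contrasts was -0.06 and Spearman's rho -0.04, a description over genes that share the fit's dispersions and size factors. Called with the same direction in both were 0 of the 127 and 2 of the 275. Over all 11933 members, 0.696% rose and 0.553% fell, while 47.3% of differences lay above 0 and 52.7% below.

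The difference between the effects with and without palbociclib passed for 3 genes by the summed errors (0.0251%), Rtp4, Rai14 and Camsap2, and for 203 by the recovered errors (1.7%), 137 higher and 66 lower. For Rtp4 it was -2.38 ± 0.36 (adjusted p = 1.48e-07), and the authors' deposited table gave 0.58 ± 0.25 for ruxolitinib over vehicle. Camsap2, of microtubule minus ends, was at 3.14 ± 0.61, and the authors' deposited table gave -2.21 ± 0.43 for ruxolitinib over vehicle. Rai14 was at -1.30 ± 0.23, and the authors' deposited table gave 0.78 ± 0.16 for ruxolitinib over vehicle. Ddx3y, Uty and Eif2s3y were near 0 in the combination and palbociclib libraries and not in the ruxolitinib and vehicle libraries, and the part of this in these values was not tested.

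**Figure D5:**
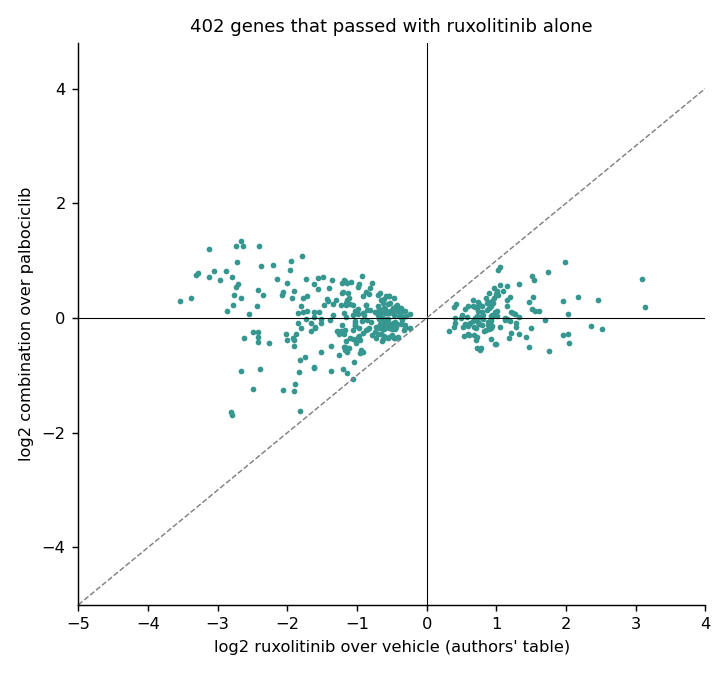
The 402 members that passed with ruxolitinib alone: log2 ruxolitinib over vehicle (horizontal axis) against log2 combination over palbociclib (vertical axis), 1 point per gene. The dashed line marks equal effects; the medians on the vertical axis are 0.03 and 0.02 for the genes higher and lower with ruxolitinib.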

How the data were processed

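Sorted LSK cells were sequenced as 12 libraries in 4 groups of 3. The build GRCm38 and the tools featureCounts 2.0.0, HISAT2 2.0.1, SAMtools 1.10, fastp 0.20.0 and the authors' DESeq2 are listed in the submitters' processing notes, with no roles; settings are not given in the sources used here. The deposited tables compare each drug group with vehicle. The base mean is a signal, the mean of normalised counts over all libraries of the authors' fit. The log2 fold change and its error are the authors' DESeq2 estimates. The score is the Wald statistic deposited by the authors, and the deposited p-value and adjusted p are theirs.

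Combination minus palbociclib was tested with summed errors, the planned test, and with errors recovered from each gene's 3 deposited errors under the variance model of the authors' DESeq2 fit (solved within 1e-06 for 11932 of 11933 members); both are 2-sided normal tests adjusted over 19228 genes. Describing genes by the recovered errors was chosen after the summed errors called 1 gene. Tested on simulated data, the recovered errors found more of the changed genes, but called more unchanged genes than the adjusted p allows. The summed errors called no unchanged gene there. Single calls that rest on the recovered errors alone are therefore uncertain, most of all near the threshold. Levels and their 95% intervals come from the same solution and hold no error beyond counting and the modelled dispersion. Gene lists and members were chosen with earlier results of these data known. Lists are given by counts and medians, with no set test.

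Named genes were the 10 largest called changes each way, the same without the lists of other cells and Y-linked genes, up to 3 members of each list by p, the 5 smallest p each way, and all sort genes and drug targets; other called members of the interferon, cholesterol and plasma lists were added, and some list members are not reported here. A planned print of JAK-STAT target promoters was replaced by promoters of the lists that changed. Coordinates came from GENCODE mouse release 21. Alternatives covered the error, a correlation of 0.5 between estimates, centring, the base mean minimum and the genes adjusted over. Python 3.11.15, numpy 2.4.6, pandas 2.3.3, scipy 1.17.1 and matplotlib 3.10.9 were used.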

Additional observations from a re-analysis of the deposited data

Results flagged for a closer look

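For 20 named genes the effect of ruxolitinib on top of palbociclib differed from its effect alone by the recovered errors, with DESeq2's deposited errors as their source. Over all 11933 members tested it differed for 203 (1.7%). Many named genes were chosen by their difference between combination and palbociclib, which is part of this value, so the 20 are a description. Cd28 and Blnk also met the base mean minimum only through the combination, so they had to differ. On the log2 scale the difference of effects was higher on top of palbociclib for Slc2a9 (1.21), Nfkbia (1.44), Cd28 (4.51), Atf5 (1.56), Ctss (2.16), Cd79b (1.44), Bhlha15 (3.42), Blnk (4.75), Jchain (6.27), Ly6e (0.64), Eif3f (0.80), Urod (0.73) and Ifnar1 (0.42). It was lower for Oas3 (-1.73), Rtp4 (-2.38), Isg15 (-1.68), Nop2 (-0.85), Zfp109 (-0.85), Slc5a3 (-1.49) and Jak3 (-0.86). Of the 20, the last 4 of those higher and Jak3 did not pass in combination over palbociclib itself. By the summed errors Rtp4 alone among these 20 passed. Immunoglobulin segments, which the rule leaves out, took 6.71% of normalised reads in combination libraries, against 0.4345% in palbociclib and 0.0796% in vehicle libraries.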

How the results depend on the processing

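No paired analysis was possible because the tables hold group estimates and no values per library, so no library could be left out either. Against 0 genes higher and 1 lower by the summed errors, the recovered errors called 83 and 66, and a correlation of 0.5 between the estimates 130 and 86. With no filter on low counts the summed errors called 2 lower. Alternatives added after seeing the data used the recovered errors: adjusted over the members only they called 117 higher and 76 lower, centred 136 and 57, at a base mean of at least 200 they called 60 and 55, and without the lists of other cells and Y-linked genes 76 and 65. The difference between the ruxolitinib effects passed for 203 genes with recovered errors, against 3 with summed. The share of ruxolitinib genes with the same direction ran from 47.2% to 58.3% for those higher and from 47.6% to 51.3% for those lower.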
